A study of Mus musculus with 16 samples.

Results

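HE1 is the first stage of the hemogenic endothelium, in which the cells carry the endothelial receptor Tie2 (Tek) and the stem cell factor receptor KIT but not yet CD41, the integrin that marks commitment to blood. The comparison here is of gene expression with and without Sp1 DNA binding at that stage. It rests on the arrays labelled HE1, 4 of the 16 arrays, 2 of Sp1+/+ cells and 2 of Sp1-/- cells. The study differentiated mouse ES cells in blast culture and measured mRNA in Flk1+ cells (the mesodermal cells that found the culture), in HE1, in HE2 (the CD41+ stage that follows it) and in KIT+ CD41+ Tie2- progenitors. Its question was how the lack of Sp1 activity perturbs early blood development. Sp1+/+ HE1 cells are wild type, and the titles of their arrays name the E14 ES cell line. Sp1-/- HE1 cells carry a mutated Sp1 locus on both alleles, from which only a shortened Sp1 that cannot bind DNA is made. The labels give C57BL/6 as the strain of every array. No treatment separates the groups, and both genotypes were differentiated and sorted by the same protocol, with floating and adherent cells pooled before the sort. The sources name 1 ES cell line per genotype, so line and genotype cannot be told apart.

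Sp1 is a ubiquitous zinc finger transcription factor that binds GC boxes, short GC-rich motifs common in the promoters of housekeeping and developmental genes. Its relatives Sp3 and Sp4 recognize the same letters. Hemogenic endothelium is a transient endothelial tissue that loses its endothelial program and turns on blood genes, and the transcription factors Runx1 and Gfi1b are known to drive this step. In bulk RNA of sorted cells, fewer cells of a type and less RNA per cell cannot be told apart.

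All values below are the normalized log2 intensities that the authors deposited, read from the brightest probe of each gene, and a difference of 1 is a change of 2-fold. A change is the mean of the 2 Sp1-/- arrays minus the mean of the 2 Sp1+/+ arrays. A gene is called higher or lower, or said to have risen or fallen, where limma's unadjusted p was 0.01 or less and the change at least 2-fold, and the adjusted p is the Benjamini-Hochberg value over all genes tested. The number of arrays limits the precision. Spots well above background made up 67.0% to 77.1% of each array. The deposited design calls the replicates independent, but the study's text also speaks of technical replicates, so p-values may measure only technical spread. The Sp1+/+ arrays shared 1 slide and the Sp1-/- arrays the other, which means that an effect of the slide cannot be told apart from one of the genotype. The probe of Sp1 itself read 12.39 and 12.42 in Sp1+/+ HE1 and 9.03 and 9.22 in Sp1-/- HE1. Both Sp1-/- arrays lay far below both Sp1+/+ arrays, with a change of -3.28 (standard error 0.18, adjusted p = 2.21e-06), and stayed well above background. Where this probe lies relative to the mutation is not given in the sources used here.

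The sorted cells had the markers of endothelium and also those of other cell types. All 9 markers of hemogenic endothelium were well above background on all 4 arrays, and their summed intensity (log2 of the sum) was 17.15 and 17.44 in Sp1+/+ HE1 and 16.71 and 17.06 in Sp1-/- HE1. The endothelial cadherin Cdh5 read 15.16 and 14.93 in Sp1+/+ HE1 and 14.54 and 14.62 in Sp1-/- HE1. Tek, which like Kit encodes a receptor used for the sort, read 12.34 and 12.50 against 11.89 and 11.65. Both differences, -0.47 for Cdh5 and -0.65 for Tek, missed the threshold (adjusted p of 0.596 and 0.462). The VEGF receptor gene Kdr, which encodes Flk1, read 13.74 and 14.06 against 14.37 and 15.37, a difference of 0.97 that stayed just short of 2-fold (adjusted p = 0.0339). Only Cd34, which encodes a sialomucin of endothelium and blood stem cells, was called among the 9. It read 14.99 and 16.01 in Sp1+/+ HE1 and 13.83 and 14.13 in Sp1-/- HE1, so the groups did not overlap, and it fell by 1.52 (adjusted p = 0.0162). All 9 markers of mesenchyme and smooth muscle and all 6 cardiac markers were well above background on all 4 arrays too. The summed intensity of the mesenchyme markers was 18.40 and 17.76 in Sp1+/+ HE1 and 18.64 and 17.98 in Sp1-/- HE1, so the genotypes overlapped. Of the 9 markers of epithelium and endoderm, 6 were well above background on all 4 arrays, with sums of 16.34 and 15.02 against 16.54 and 15.54, whereas Epcam and Ttr were not on any. Of the 8 markers of blood cells after CD41, 7 were well above background on all 4, the exception being the myeloid factor Spi1, which was not on any. The part of these cell types in the results was not tested.

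The 2 Sp1+/+ arrays differed from each other in erythroid genes. The embryonic alpha-like globin Hba-x read 13.49 and 7.55 in Sp1+/+ replicates 1 and 2 and 10.88 and 11.15 in the Sp1-/- replicates, and the embryonic beta-like globin Hbb-bh1 read 15.62 and 11.22 against 13.48 and 13.68. The Sp1-/- arrays thus lay between the 2 Sp1+/+ arrays. The summed intensity of the 7 erythroid markers (log2 of the sum) was 16.18 and 12.36 in Sp1+/+ HE1 and 14.08 and 14.21 in Sp1-/- HE1. None of the 38 measured erythroid genes was called. Without Sp1+/+ replicate 1, 4 were higher and 0 lower in Sp1-/- HE1, and without Sp1+/+ replicate 2, 0 were higher and 2 lower. The part of erythroid cells in the results below was not tested, and results that rest on 1 of the arrays are given with the values without it.

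Of 37149 genes tested, 783 (2.11%) were called between the genotypes, 361 higher (0.972%) and 422 lower (1.14%) in Sp1-/- HE1. Falls reached further than rises: 64 genes fell and 19 rose at least 4-fold, and 16 fell and 5 rose at least 8-fold. Adjusted p-values of the called genes reached at most 0.0748, and 735 of them had an adjusted p of 0.05 or less. These p-values take the spread of a gene as equal in all 8 groups, whereas the Sp1-/- HE1 pair differed most, as given below. With only the 4 HE1 arrays in the limma fit, 49 genes were called with an adjusted p of 0.05 or less. The genotypes did not overlap in any of the 783 genes, nor did they in 45.0% of all genes tested. Genes with a symbol made up 232 of the 361 higher and 368 of the 422 lower. Where a called gene had other probes on the array, 155 of 180 such probes (86.1%) went the same way for lower genes and 234 of 333 (70.3%) for higher genes. The split depended on the scaling. When each array's processed signal was divided by its own 75th percentile instead, 1388 genes were higher and 646 lower. That made 68.2% higher against 46.1% with the deposited values, and the median log2 change of all genes moved from 0.01 to 0.19.

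By the counts below, the 2 Sp1-/- HE1 arrays were the least alike pair of the series. Between them, 803 genes were at least 2-fold higher in replicate 2 (2.16% of genes) and 300 in replicate 1 (0.808%), against 53 to 376 and 33 to 200 in the other 7 groups. The median absolute difference was 0.19, against 0.10 to 0.14 elsewhere. Of the 803 genes, 62% had no symbol, and of all 37149 genes tested 17027 had none. They held 24 of the 1064 olfactory receptor genes measured, near the 2.16% of all genes, and 6 of the 50 keratin-associated protein genes. Among the same 803 genes, 66 were called higher and 2 lower. The linker histone gene H1f6 read 7.16 and 10.88 in Sp1-/- replicates 1 and 2 against 8.22 and 8.92 in Sp1+/+ HE1, and Olfr890 read 6.11 and 9.81 against 6.21 and 6.01. In both, replicate 2 stood far above all other HE1 arrays, replicate 1 did not, and neither gene was called. In the other direction, the coagulation initiator F3 read 10.37 and 8.59 in Sp1-/- replicates 1 and 2 against 10.60 and 8.44 in Sp1+/+ HE1, and the protease gene Prss23 read 10.80 and 9.03 against 11.01 and 9.28. Replicate 1 was the higher array in both genotypes, and the median difference between the Sp1+/+ replicates for the 300 genes ran the same way (-0.39, replicate 2 minus replicate 1). For the 803 genes the median Sp1+/+ difference was 0.39, also the same way as in Sp1-/- HE1.

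**Figure D1:**
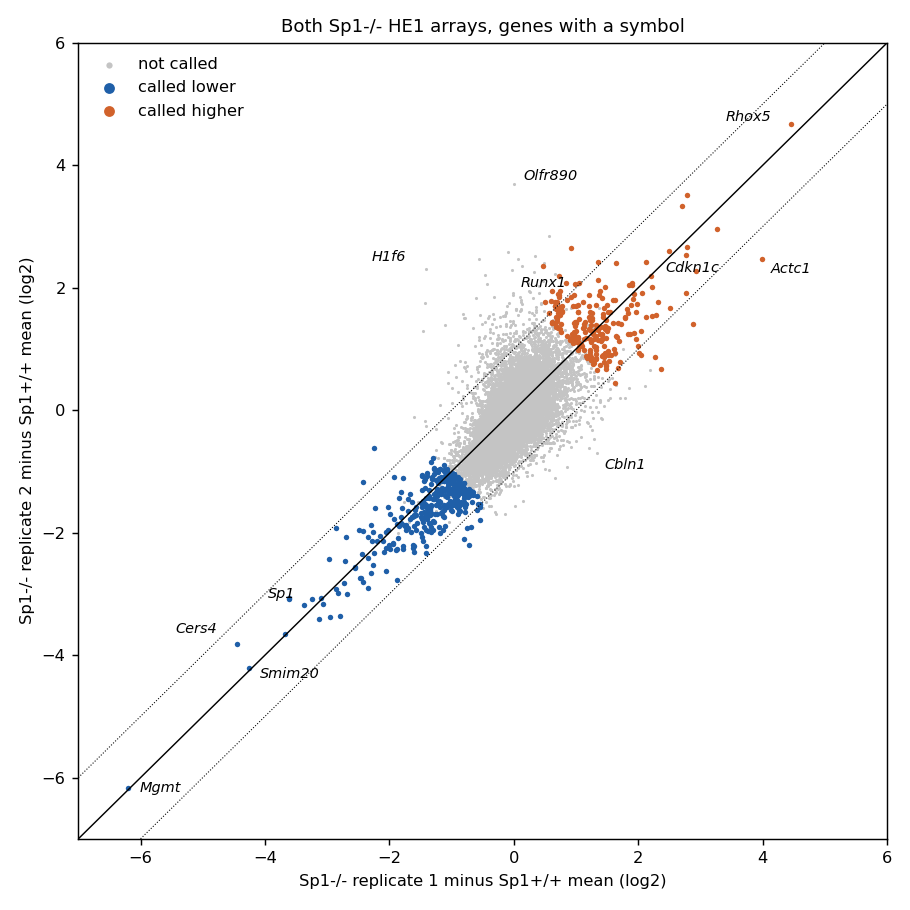
Each point is 1 of the genes with a symbol, with the log2 difference from the Sp1+/+ mean in Sp1-/- replicate 1 on the x axis and in Sp1-/- replicate 2 on the y axis. Blue and orange points are genes called lower and higher, gray points were not called, the solid line marks equal differences and the dotted lines a 2-fold gap between the replicates. Mgmt, Smim20 and Rhox5 lie close to the solid line, whereas Olfr890 and H1f6 lie far above it.

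Leaving out 1 array changed the counts most for the Sp1-/- arrays. Without Sp1-/- replicate 1, 985 genes were higher and 753 lower, and without Sp1-/- replicate 2, 275 and 297. The remaining array is then assumed to vary like the other groups. Of the 361 genes called higher, 52.6% were still called higher without Sp1-/- replicate 2, and of the 422 called lower, 63.7% were still called lower. In all, 121 higher and 230 lower genes kept their call whichever of the 4 HE1 arrays was left out. With only the 4 HE1 arrays in the fit, 219 genes were higher and 380 lower. After Benjamini-Hochberg adjustment at 0.05, that fit left 7 higher and 42 lower, and with a replicate block as well 0. A t-test of each gene alone called 43 higher and 110 lower, and 0 after adjustment.

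**Figure D2:**
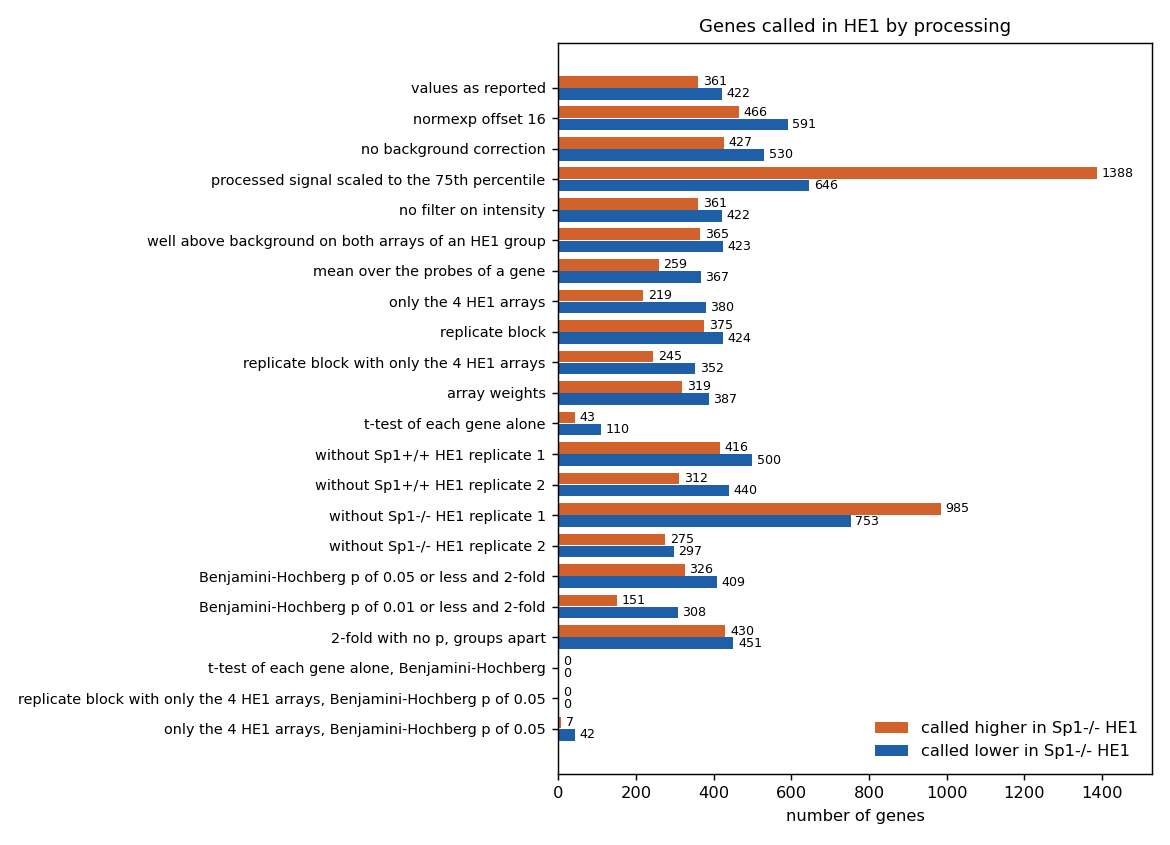
Bars give the number of genes called higher (orange) and lower (blue) in Sp1-/- HE1 with the values as reported and under each alternative named on the left. The bars for the scaled processed signal (1388 and 646) and for the fit without Sp1-/- replicate 1 (985 and 753) are the longest. The shortest that are not 0 are those of the fit on only the 4 HE1 arrays with an adjusted p of 0.05 (7 and 42).

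The gene with the largest fall in HE1 was Mgmt, whose enzyme removes alkyl groups from guanine in DNA. It read 12.11 and 12.26 in Sp1+/+ HE1 and 5.99 and 6.01 in Sp1-/- HE1. Both Sp1-/- arrays were not well above background, so it was at least 70.8-fold lower (adjusted p = 1.03e-09). Several of the next genes serve mitochondria and lipid metabolism. Smim20, a small mitochondrial membrane protein that takes part in cytochrome oxidase assembly, read 11.41 and 11.30 against 7.10 and 7.15 and fell by 4.23. The ceramide synthase gene Cers4 read 12.57 and 12.67 against 8.17 and 8.80 and fell by 4.13. In each of these genes the 2 arrays of a genotype stood close together and far from those of the other genotype. Gstk1, a glutathione transferase of mitochondria and peroxisomes, read 11.65 and 12.24 against 8.27 and 8.29 and fell by 3.67. Ctsz, a lysosomal cysteine protease, read 12.76 and 12.89 against 9.21 and 9.74 and fell by 3.35. Renbp, an enzyme of amino sugar metabolism also known to bind renin, read 12.30 and 12.16 against 8.62 and 9.17 and fell by 3.33. These genes had adjusted p-values of at most 3.25e-06.

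Emp3 (a tetraspan membrane protein), Ano10 (of the anoctamin family), Rbfa (a ribosome maturation factor of mitochondria), Prelid2, Tmem159 (a lipid droplet protein), Fggy (a carbohydrate kinase) and the predicted gene Gm9731 completed the 15 largest falls with Sp1 and S100a6. Their log2 changes ran from -2.90 for Gm9731 to -3.27 for Emp3. S100a6, a small calcium-binding protein, read 14.87 and 15.06 in Sp1+/+ HE1 and 12.17 and 11.60 in Sp1-/- HE1. It fell by 3.08 (standard error 0.23, adjusted p = 2.1e-05). All 15 kept their call with any 1 of the 4 arrays left out.

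**Figure D3:**
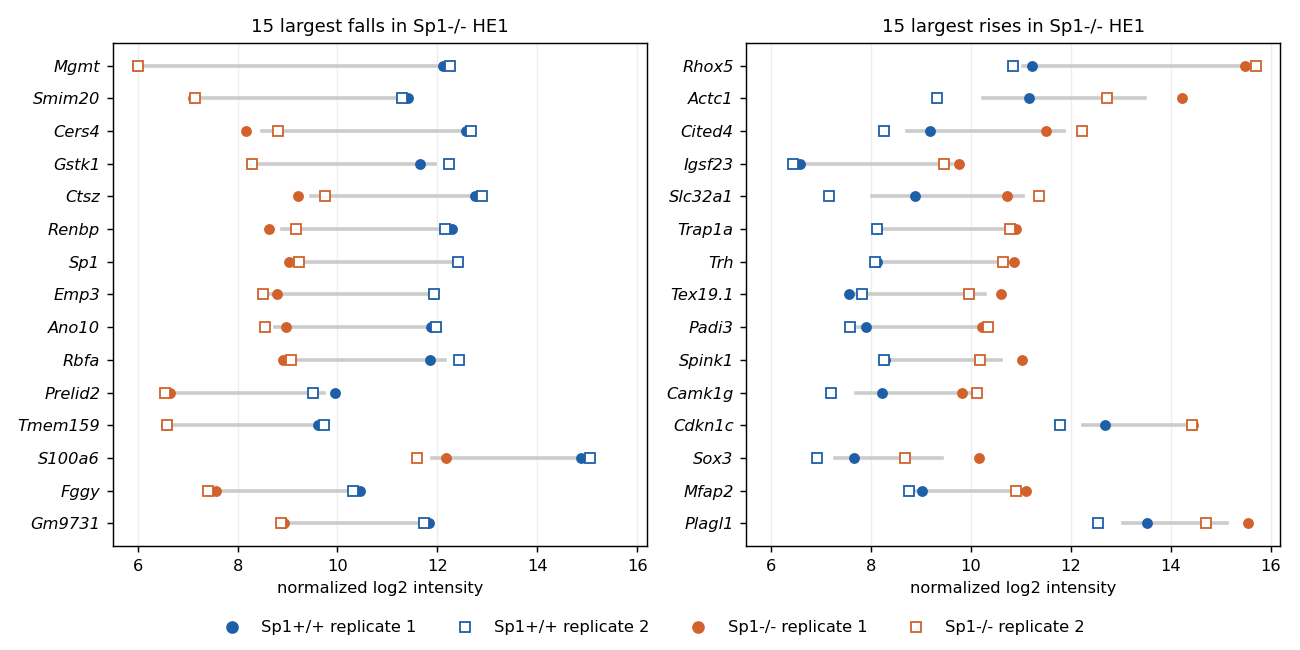
Normalized log2 intensity (x axis) of the 15 genes with the largest fall (left) and the 15 with the largest rise (right) on each of the 4 HE1 arrays, circles for replicate 1 and squares for replicate 2, with a gray line between the genotype means. Replicates lie close together for most falls, and spread more for rises such as Actc1 (11.17 and 9.33 in Sp1+/+, 14.23 and 12.72 in Sp1-/-). Mgmt was not well above background in Sp1-/- HE1.

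Because Sp1 is known to bind GC boxes, promoters were searched for their letters. The box was searched as GGGCGG on either strand (CCGCCC on the other), overlapping copies included, over 300 bases from 250 before to 50 after each gene start in the RefSeq table of assembly GRCm38.p6. It stood in 35.7% of all 32851 promoters of the table. Of the genes tested that matched by symbol, 8417 of 15961 (52.7%) had it in at least 1 promoter, against 223 of 289 genes called lower (77.2%) and 95 of 178 called higher (53.4%). Among genes well above background on all 4 arrays, the shares were 62.6% of those tested, 76.7% of those called lower and 54.4% of those called higher. These are descriptions of letters with no test, and a match is not a bound site. The 250 bases before the start are shown for the 6 genes with the largest falls, Mgmt, Smim20, Cers4, Gstk1, Ctsz and Renbp, for Ano10, also among the 15 largest, for the fatty acid genes Cpt2 and Eci2, for Rhox5, which rose most, and for Sp4, a member of the Sp family that rose. They were picked with their boxes known and stand for no share. Capitals mark the GC boxes, and touching or overlapping boxes run together. Mgmt is shown at chr7:136894336-136894585 (plus strand, 4 boxes), and its other promoter in the table had 0. Smim20 is at chr5:53266856-53267105 (plus strand, 1 box) and Renbp at chrX:73930851-73931100 (minus strand, 2 boxes). Ano10 is at chr9:122294424-122294673 (minus strand, 5 boxes), Ctsz at chr2:174439040-174439289 (minus strand, 2 boxes), Cers4 at chr8:4493155-4493404 (plus strand, 1 box) and Gstk1 at chr6:42245685-42245934 (plus strand, 1 box). Cpt2 is at chr4:107923590-107923839 (minus strand, 2 boxes), Eci2 at chr13:34994145-34994394 (minus strand, 2 boxes), Rhox5 at chrX:37754358-37754607 (plus strand, 0 boxes) and Sp4 at chr12:118301441-118301690 (minus strand, 4 boxes).
Mgmt: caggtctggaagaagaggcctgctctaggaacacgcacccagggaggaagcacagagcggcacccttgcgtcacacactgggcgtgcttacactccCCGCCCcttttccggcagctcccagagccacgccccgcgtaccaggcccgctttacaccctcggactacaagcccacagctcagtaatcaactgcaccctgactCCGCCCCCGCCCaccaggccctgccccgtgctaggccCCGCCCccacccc
Smim20: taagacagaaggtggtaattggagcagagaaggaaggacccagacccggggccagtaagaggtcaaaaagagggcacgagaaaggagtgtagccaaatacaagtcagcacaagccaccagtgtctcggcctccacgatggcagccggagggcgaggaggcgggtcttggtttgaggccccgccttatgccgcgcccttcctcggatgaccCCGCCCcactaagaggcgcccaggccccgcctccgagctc
Ano10: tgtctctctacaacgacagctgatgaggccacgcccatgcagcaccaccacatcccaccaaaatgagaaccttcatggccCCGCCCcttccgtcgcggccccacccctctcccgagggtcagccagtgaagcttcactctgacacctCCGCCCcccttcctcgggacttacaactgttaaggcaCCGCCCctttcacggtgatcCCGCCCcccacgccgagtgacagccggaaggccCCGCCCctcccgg
Ctsz: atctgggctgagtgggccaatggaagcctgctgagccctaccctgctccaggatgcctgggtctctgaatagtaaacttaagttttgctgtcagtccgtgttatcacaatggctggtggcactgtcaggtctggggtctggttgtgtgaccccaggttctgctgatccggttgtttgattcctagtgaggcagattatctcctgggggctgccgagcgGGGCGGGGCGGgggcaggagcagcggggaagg
Renbp: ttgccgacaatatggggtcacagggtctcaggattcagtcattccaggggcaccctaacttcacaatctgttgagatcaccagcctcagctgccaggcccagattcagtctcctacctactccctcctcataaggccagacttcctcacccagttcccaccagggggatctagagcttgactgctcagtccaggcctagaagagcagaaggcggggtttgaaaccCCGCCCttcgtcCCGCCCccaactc
Cers4: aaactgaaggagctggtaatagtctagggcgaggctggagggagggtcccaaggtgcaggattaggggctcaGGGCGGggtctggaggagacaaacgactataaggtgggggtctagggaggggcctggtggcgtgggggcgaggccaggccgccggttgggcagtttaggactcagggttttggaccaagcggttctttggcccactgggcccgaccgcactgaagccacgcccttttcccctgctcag
Gstk1: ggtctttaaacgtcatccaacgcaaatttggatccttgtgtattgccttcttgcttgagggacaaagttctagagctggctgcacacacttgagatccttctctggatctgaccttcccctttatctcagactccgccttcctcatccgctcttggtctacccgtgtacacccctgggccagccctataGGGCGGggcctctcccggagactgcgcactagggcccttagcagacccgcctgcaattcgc
Cpt2: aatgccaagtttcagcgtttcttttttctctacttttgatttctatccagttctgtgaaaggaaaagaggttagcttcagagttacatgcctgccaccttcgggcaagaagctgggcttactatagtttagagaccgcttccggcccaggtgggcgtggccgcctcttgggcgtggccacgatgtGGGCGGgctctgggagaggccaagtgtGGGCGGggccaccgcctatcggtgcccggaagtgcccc
Eci2: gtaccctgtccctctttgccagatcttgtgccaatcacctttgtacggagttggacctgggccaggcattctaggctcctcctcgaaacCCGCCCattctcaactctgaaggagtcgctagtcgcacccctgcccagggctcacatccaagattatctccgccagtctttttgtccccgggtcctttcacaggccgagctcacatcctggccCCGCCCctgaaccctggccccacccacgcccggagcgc
Rhox5: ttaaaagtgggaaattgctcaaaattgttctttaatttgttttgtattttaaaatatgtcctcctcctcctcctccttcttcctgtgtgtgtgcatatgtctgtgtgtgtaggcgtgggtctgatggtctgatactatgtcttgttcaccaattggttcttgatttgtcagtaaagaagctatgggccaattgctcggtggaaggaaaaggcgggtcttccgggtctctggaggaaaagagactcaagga
Sp4: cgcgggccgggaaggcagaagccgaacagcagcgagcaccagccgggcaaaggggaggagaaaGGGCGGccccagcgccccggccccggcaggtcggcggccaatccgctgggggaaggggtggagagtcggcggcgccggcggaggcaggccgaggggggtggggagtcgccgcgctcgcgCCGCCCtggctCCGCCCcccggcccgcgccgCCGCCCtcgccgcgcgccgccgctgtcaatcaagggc

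The gene with the largest rise was Rhox5, an X-linked homeobox gene of the germline. It read 11.23 and 10.85 in Sp1+/+ HE1 and 15.49 and 15.71 in Sp1-/- HE1, a rise of 4.56 (standard error 0.17, adjusted p = 3.09e-07), with the 2 arrays of each genotype close together. Actc1, the cardiac alpha actin, read 11.17 and 9.33 against 14.23 and 12.72, a rise of 3.23 with a standard error of 0.74. The arrays of Actc1 spread by over 1 log2 unit within each genotype, and its call did not hold without Sp1+/+ replicate 2 (2.31) or without Sp1-/- replicate 1 (2.47). Cited4, a coactivator that binds CBP and p300, read 9.18 and 8.25 against 11.50 and 12.22 and rose by 3.15 (adjusted p = 0.00221). Slc32a1, the vesicular transporter of GABA and glycine, read 8.89 and 7.16 against 10.73 and 11.36 and rose by 3.02 (adjusted p = 0.0147). Both genes had their lowest value in Sp1+/+ replicate 2.

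Rises with little spread between replicates were those of Igsf23, of the immunoglobulin superfamily, at 6.57 and 6.43 against 9.77 and 9.46, and of Trap1a, an X-linked tumor rejection antigen gene, at 8.12 and 8.12 against 10.90 and 10.79. Trh, which encodes thyrotropin-releasing hormone, read 8.12 and 8.08 against 10.87 and 10.64, and Mfap2, a microfibril protein, read 9.02 and 8.76 against 11.11 and 10.90. In these 4 genes the replicates of a genotype stood close together, against changes of 2.12 to 3.12 between the genotypes. Padi3 (a peptidylarginine deiminase), Spink1 (a trypsin inhibitor), Camk1g (a calmodulin-dependent kinase), Tex19.1 and Sox3 rose by 2.14 to 2.60. Cdkn1c and Plagl1, both imprinted, are described with their group.

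Groups of genes are given by how many measured members passed the test, beside 0.972% higher and 1.14% lower among all genes tested, and by the median change of the list, beside 0.01 over all genes. List members all have symbols, and the called shares of genes with a symbol were larger. Of 20122 such genes, 232 were higher and 368 lower. Of the 14909 of them well above background on all 4 HE1 arrays, 219 were higher and 351 lower. The 45 lists hold 1815 different measured genes, of which 63 were higher and 63 lower, 6.94% called. All lists were chosen with earlier results of these data known, and no test of a list was made. Most lists have few calls, and a count moved by over 1.5 times in 40 of the 45 when 1 of the 4 HE1 arrays was left out and in 29 with the scaled processed signal.

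**Figure D4:**
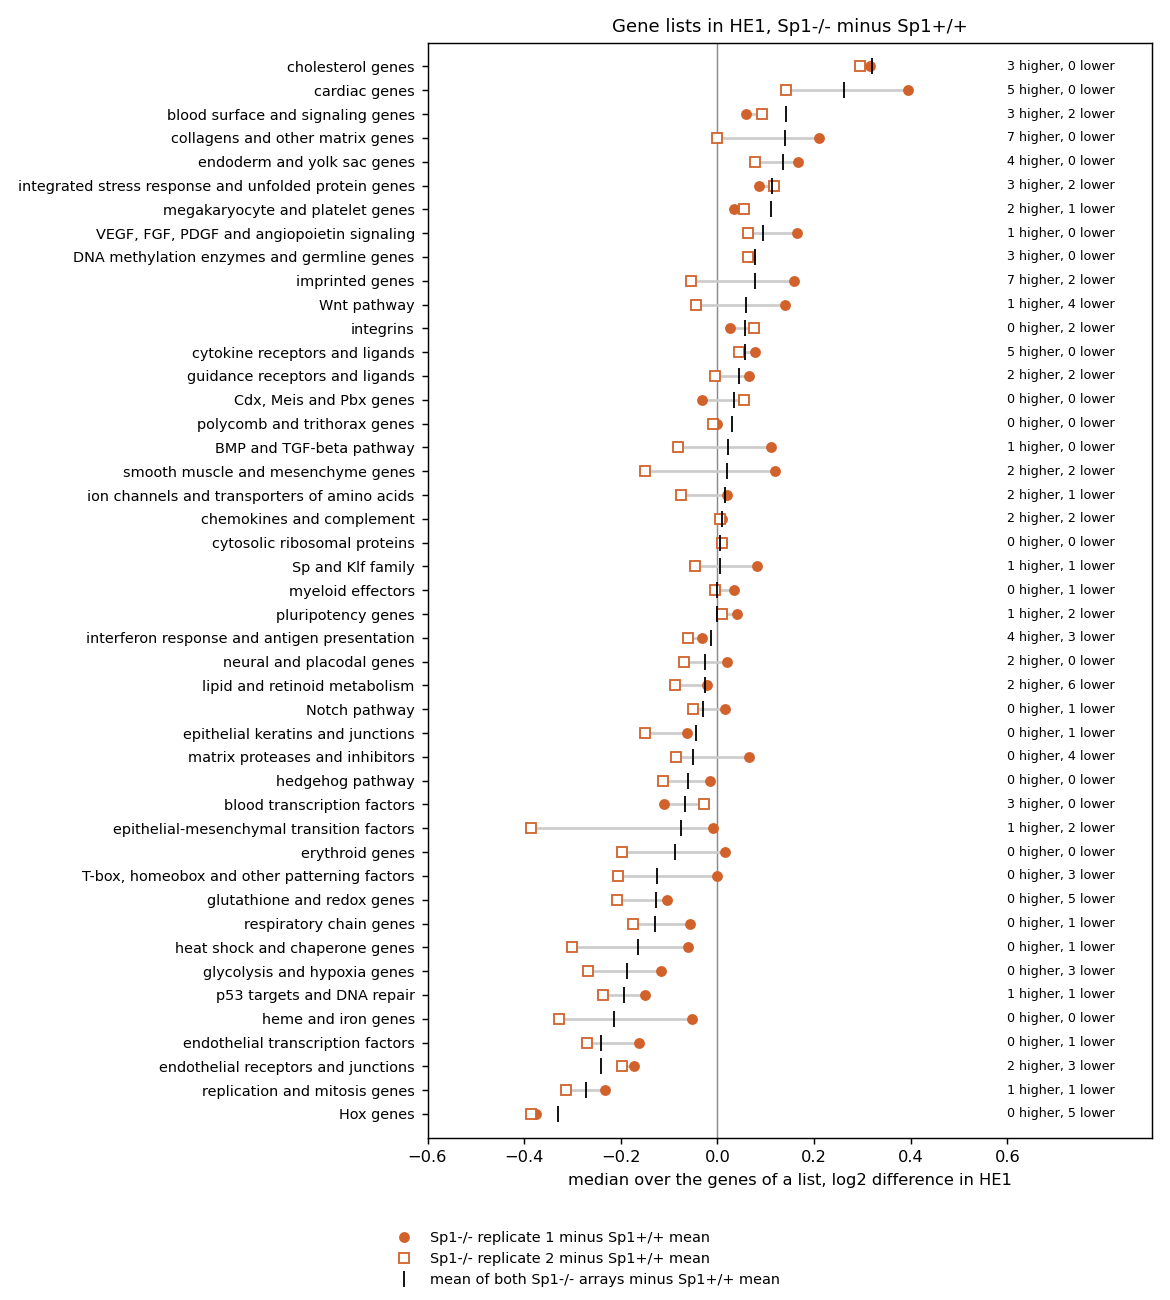
Each row is 1 gene list, without the marker lists and the 3 lists written after values had been seen. The x axis is the median log2 difference from the Sp1+/+ mean over its measured genes, with a circle for Sp1-/- replicate 1, an open square for Sp1-/- replicate 2 and a black bar for the change between the genotype means, and the numbers of genes called stand on the right. Hox genes (5 lower) and replication and mitosis genes lie farthest to the left, cholesterol (3 higher) and cardiac genes (5 higher) farthest to the right, and replicate 2 lies to the left of replicate 1 in most lists.

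Endothelial genes changed in both directions. Of 54 receptors and junction genes, 2 were higher and 3 lower, with a median of -0.24. Lyve1, a hyaluronan receptor of lymphatic and embryonic endothelium, read 10.07 and 9.93 in Sp1+/+ HE1 and 7.74 and 7.47 in Sp1-/- HE1 and fell by 2.40 (adjusted p = 1.78e-05). Aplnr, the apelin receptor, read 11.88 and 12.56 against 10.52 and 10.77 and fell by 1.57. Cd34, above, was the third that fell. The 2 genes that rose were Vwf, which encodes von Willebrand factor, at 10.82 and 10.75 against 12.15 and 12.66 (change 1.62, adjusted p = 0.00416), and the adhesion molecule gene Vcam1, at 9.39 and 8.56 against 11.02 and 10.26 (change 1.67). The call of Aplnr did not hold without Sp1+/+ replicate 2 (-1.24), nor that of Vcam1 without the same array (1.25) or without Sp1-/- replicate 1 (1.28). Among 26 endothelial transcription factors, Ets2 alone was called, at 14.74 and 14.53 against 13.16 and 13.33 (change -1.39, adjusted p = 0.00192). Fli1 (-0.59), Erg (0.23), Sox7 (0.03) and Etv2 (-0.35) were not called.

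Signals between endothelial cells gave few calls. Vegfc, a ligand for VEGF receptors, read 11.84 and 11.67 against 12.96 and 13.08 and rose by 1.26 (adjusted p = 0.00511), the only one called of 51 genes of VEGF, FGF, PDGF and angiopoietin signaling. With the scaled processed signal 5 of these were higher and 0 lower, and without Sp1+/+ replicate 1, 4 were higher and 1 lower. In the Notch pathway, Nrarp, a feedback inhibitor of Notch, read 9.14 and 9.21 against 8.21 and 7.98 and fell by 1.08, 1 of 31 genes, and its change was -0.96 without Sp1-/- replicate 2. Plxnd1, the semaphorin receptor of endothelium, read 15.34 and 16.12 against 13.89 and 14.30 and fell by 1.64 (adjusted p = 0.00763). The Eph receptor gene Epha7 read 7.40 and 7.05 against 9.19 and 8.83 and rose by 1.78 (adjusted p = 0.000235). Of 63 guidance receptors and ligands, 2 were higher and 2 lower. Of the 24 integrin genes measured, Itga3, a laminin receptor subunit, read 10.37 and 11.09 against 9.56 and 9.37 and fell by 1.26, and its change was -0.91 without Sp1+/+ replicate 2. The other that fell was Itga1, which lost its call without any 1 of the 4 arrays (changes from -1.46 to -1.14).

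Some regulators of blood formation rose. Of 36 blood transcription factors, 3 were higher and 0 lower, while the median of the list was -0.07. Runx1, the factor required for blood cells to leave the endothelium, read 10.03 and 9.08 in Sp1+/+ HE1 and 10.76 and 11.44 in Sp1-/- HE1. Both Sp1-/- arrays lay above both Sp1+/+ arrays, replicate 2 most, and the change was 1.54 (standard error 0.32, adjusted p = 0.0135). The call of Runx1 did not hold with only the 4 HE1 arrays in the fit, with or without a replicate block. Nor did it hold in the t-test of the gene alone. With only the 4 HE1 arrays and no block, 1 of the 36 factors was higher and 0 lower. Gfi1b, a repressor that acts with Runx1, read 9.74 and 9.10 against 10.09 and 10.94 (change 1.09, adjusted p = 0.0717), and Mlf1, a myeloid leukemia factor gene, read 8.03 and 7.82 against 9.16 and 8.74 (change 1.02). Gfi1b fell short without Sp1+/+ replicate 2 (0.78) and without Sp1-/- replicate 2 (0.67), and Mlf1 without Sp1+/+ replicate 2 (0.92) and without Sp1-/- replicate 1 (0.81). Tal1 (-0.11), Lmo2 (-0.28) and Gata2 (-0.28) were not called, and Gata1, at 9.57 and 6.89 against 8.20 and 8.13, followed the globins. Without Sp1+/+ replicate 1 the list had 5 higher and 0 lower, and without Sp1+/+ replicate 2, 1 higher and 2 lower.

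Of 34 cytokine receptors and ligands, 5 were higher and 0 lower. Csf2rb, the shared beta chain of the receptors for IL3, IL5 and GM-CSF, read 10.48 and 9.20 against 11.08 and 11.23. Its copy Csf2rb2, the beta chain of the IL3 receptor, read 9.55 and 8.41 against 10.45 and 10.31. They rose by 1.31 and 1.40, with changes of 0.68 and 0.83, not called, without Sp1+/+ replicate 2, and Csf2rb was not called without Sp1-/- replicate 2 either (1.24). Csf2rb and Csf2rb2 are near-identical copies, so their probes may share signal. Il2rg, the common gamma chain, read 9.98 and 9.55 against 10.72 and 10.86, and Flt3l, the FLT3 ligand, read 9.60 and 9.35 against 10.44 and 11.36. Their changes were 1.02 and 1.43, and 0.95 and 0.96, under 2-fold, without Sp1-/- replicate 2. Without Sp1+/+ replicate 2, Il2rg was 0.81. The fifth, the interleukin-1 receptor gene Il1r1, read 7.71 and 7.0 against 8.59 and 8.17 (change 1.02, or 0.67 without Sp1+/+ replicate 2 and 0.81 without Sp1-/- replicate 1). Without Sp1+/+ replicate 2, 1 gene of this list was called, and without Sp1-/- replicate 2, 2 were called. Among 44 surface and signaling genes of blood cells, 3 were higher and 2 lower, or 6 and 2 without Sp1+/+ replicate 1 and 3 and 4 without Sp1+/+ replicate 2. Laptm5, a lysosomal membrane protein of blood cells, read 9.32 and 9.18 against 10.89 and 11.66 and rose by 2.02 (adjusted p = 0.00165). Ptpn6, the phosphatase SHP-1, read 10.25 and 9.86 against 8.58 and 8.98 and fell by 1.27 (adjusted p = 0.00173). Cyba, a subunit of the NADPH oxidase, read 13.74 and 13.87 against 11.78 and 12.23 and fell by 1.80 (adjusted p = 0.000132), the only one called among the myeloid effectors. The summed intensity of the 8 markers of blood cells after CD41 (log2 of the sum) was 12.22 and 11.88 in Sp1+/+ HE1 and 12.49 and 13.16 in Sp1-/- HE1. Itga2b, which encodes CD41 itself, read 10.61 and 10.60 against 10.66 and 11.43 and was not called.

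Among Hox genes, the calls lay in 1 cluster. Hox genes are homeobox genes in 4 clusters that set position along the body axis and also act in blood progenitors. Of 39 measured, 5 were lower and 0 higher, all 5 among the 9 of the Hoxd cluster, whose median was -1.08. The medians of Hoxa, Hoxb and Hoxc were -0.06, -0.47 and -0.15, with 0 called. Hoxd9 read 9.41 and 8.88 in Sp1+/+ HE1 and 7.52 and 6.90 in Sp1-/- HE1 and fell by 1.94 (adjusted p = 0.00937). Hoxd8 read 10.39 and 9.62 against 8.67 and 8.10 and fell by 1.62, and Hoxd4 read 9.86 and 8.35 against 7.50 and 7.37 and fell by 1.67. In all 3 genes the genotypes did not overlap, and Sp1+/+ replicate 1 was the highest array. Hoxd1 (-1.35) and Hoxd10 (-1.08) were the others that fell. Of the 9 Hoxd genes, 4 were well above background on all 4 arrays, and these were the called genes other than Hoxd1, which was so on 1 of the 2 Sp1-/- arrays. Without Sp1+/+ replicate 1, 1 Hox gene was called lower, and the changes of Hoxd8, Hoxd4, Hoxd1 and Hoxd10 were -1.24, -0.92, -0.80 and -0.86. Without Sp1-/- replicate 2, 1 was called, and without Sp1-/- replicate 1, 3. With the scaled processed signal, 3 Hox genes were lower and 1 higher. None of 12 Cdx, Meis and Pbx genes was called.

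Of 61 T-box, homeobox and other patterning factors, 3 were lower and 0 higher, and the median was -0.12. Six2, a homeobox factor known from kidney progenitors, read 10.56 and 10.93 against 8.87 and 7.97 and fell by 2.33 (adjusted p = 0.00213). Tbx15, a T-box factor of skeletal mesenchyme, read 8.40 and 8.22 against 6.91 and 6.54 and fell by 1.58 (adjusted p = 0.000154). Both kept the call with any 1 array left out, whereas Twist1 (-1.11), a mesodermal factor, kept its call only without Sp1-/- replicate 1. With the scaled processed signal, 2 patterning genes were lower and 3 higher. In the Wnt pathway, 4 of 61 genes were lower and 1 higher, with a median of 0.06. Tcf7, the nuclear effector TCF1, read 9.08 and 8.90 against 7.61 and 7.37 and fell by 1.50 (adjusted p = 1.46e-05). The ligand gene Wnt9a read 8.05 and 8.03 against 7.04 and 6.40 and fell by 1.32, and the secreted inhibitor Dkk3 read 9.36 and 8.76 against 7.95 and 7.17 and fell by 1.50. Nkd1, an intracellular inhibitor of Wnt signaling, read 9.54 and 9.53 against 11.18 and 10.74 and rose by 1.43 (adjusted p = 0.00377). The fourth that fell, the inhibitor gene Dkk1 (-1.33), was -0.96 without Sp1+/+ replicate 1. Fst, which encodes the activin antagonist follistatin, was the only one called of 52 BMP and TGF-beta genes (1.28), and it kept its call only without Sp1-/- replicate 2.

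Several genes of heart muscle rose. Of 28 cardiac genes, 5 were higher and 0 lower, with a median of 0.26 (0.40 in Sp1-/- replicate 1 and 0.14 in replicate 2). Beside Actc1, the atrial light chain gene Myl4 read 9.56 and 8.99 in Sp1+/+ HE1 and 11.49 and 10.81 in Sp1-/- HE1 and rose by 1.88 (adjusted p = 0.00234). The slow skeletal troponin gene Tnni1, expressed in the embryonic heart, read 9.79 and 9.69 against 10.90 and 10.92 and rose by 1.17 (adjusted p = 0.00242). Both genes showed higher values on both Sp1-/- arrays than on either Sp1+/+ array and kept their calls with any 1 array left out. Tnnt2, cardiac troponin T, read 10.53 and 11.50 against 12.53 and 12.36 and lost its call without Sp1+/+ replicate 1 (0.94), without Sp1-/- replicate 1 (1.34) and without Sp1-/- replicate 2 (1.51). Myl7 (1.18) kept its call only without Sp1-/- replicate 2. The cardiac transcription factor Nkx2-5 read 11.36 and 12 against 10.93 and 10.71 and was not called (-0.86). The summed intensity of the 6 cardiac markers, of which 3 were called higher, was 12.94 and 13.20 in Sp1+/+ HE1 and 14.87 and 14.00 in Sp1-/- HE1 (log2 of the sum). Such a sum follows the brightest genes, and Actc1 was the brightest of these markers on both Sp1-/- arrays. With an offset of 16 in the background correction, 8 cardiac genes were higher and 1 lower.

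Of 81 collagens and other matrix genes, 7 were higher and 0 lower, with a median of 0.14 (0.21 in Sp1-/- replicate 1 and 0.00 in replicate 2). Col5a1, a fibrillar collagen chain, read 11.68 and 11.35 against 13.10 and 12.94 and rose by 1.50 (adjusted p = 7.06e-05). Dcn, a proteoglycan of connective tissue, read 7.10 and 6.51 against 8.74 and 8.06 and rose by 1.59. Lum, another, read 6.33 and 6.35 against 8.61 and 7.21 and rose by 1.57. These 2 of the 4 markers of fibroblast feeders were called higher. Lum was 0.87 without Sp1-/- replicate 1. The summed intensity of the 4 feeder markers (log2 of the sum) was 11.10 and 9.45 in Sp1+/+ HE1 and 12.23 and 10.86 in Sp1-/- HE1, so the groups overlapped. Per the methods, the ES cells were kept on embryonic fibroblasts and then passaged without them ahead of differentiation, and the part of feeder RNA in these values was not tested. Of 54 matrix proteases and inhibitors, 4 were lower and 0 higher, or 3 lower and 2 higher with the scaled processed signal. Timp1, an inhibitor of metalloproteinases, read 11.58 and 11.72 against 10.19 and 9.83 and fell by 1.64 (adjusted p = 0.00166), and the gelatinase gene Mmp2 read 12.24 and 12.29 against 11.24 and 10.98 and fell by 1.16 (adjusted p = 0.00411).

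The smooth muscle and mesenchyme list gave 2 higher (Dcn and Lum) and 2 lower. The lower ones were contractile genes, Tpm2 (a tropomyosin) at 13.46 and 12.98 against 11.76 and 11.09 and Myl9 (a myosin light chain) at 14.17 and 13.81 against 13.07 and 12.53. They fell by 1.79 (adjusted p = 0.00229) and 1.19, and Myl9 was -0.92 without Sp1-/- replicate 2. The smooth muscle actin gene Acta2 read 17.60 and 16.79 against 17.84 and 17.12 and was not called. Hspb1, a small heat shock protein that binds actin, read 15.67 and 15.35 against 14.10 and 13.17 and fell by 1.88 (adjusted p = 0.00716), the only one called of 39 heat shock and chaperone genes.

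Several enzymes of fatty acid oxidation fell. This list, like that of S100 and annexin genes and that of lysosome genes, was written after values of single members had been seen, so its count describes and supports nothing. Of 58 genes of fatty acid oxidation and peroxisomes, 8 were lower and 1 higher, with a median of -0.15. Cpt2, which hands acyl groups to the mitochondrial matrix, read 12.21 and 11.78 in Sp1+/+ HE1 and 9.54 and 9.26 in Sp1-/- HE1 and fell by 2.60 (adjusted p = 2.15e-06). Its partner on the outer membrane, Cpt1a, read 8.83 and 9.10 against 7.55 and 7.29 and fell by 1.55 (adjusted p = 0.00163). The enoyl-CoA isomerase gene Eci2 read 12.85 and 12.58 against 10.16 and 10.13. Its paralog Eci3 read 11.18 and 11.15 against 8.61 and 8.60. They fell by 2.57 and 2.56 with adjusted p-values of 6.07e-07 and 5.37e-07. Because Eci2 and Eci3 are closely related, their probes may share signal. The dehydrogenases Acadl (-1.19) and Acads (-1.33) and the thiolase Acaa2 (-1.26) fell less, and Acadl was -0.79 without Sp1-/- replicate 2. Gstk1, above, was the eighth. Acox3, a peroxisomal oxidase, read 12.59 and 12.84 against 13.37 and 14.41 and rose by 1.18, but by 0.66 without Sp1-/- replicate 2. Leaving out any 1 array left 8 or 9 of the list lower.

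Of 52 genes of lipid and retinoid metabolism, 6 were lower and 2 higher, with a median of -0.03. Alox5ap, which serves leukotriene synthesis, read 11.31 and 10.79 against 9.81 and 9.36 and fell by 1.47 (adjusted p = 0.00146), and the phospholipase gene Pla2g4a read 8.78 and 7.81 against 7.09 and 6.38 and fell by 1.56 (adjusted p = 0.00838). Aldh1a1, a retinaldehyde dehydrogenase, read 7.12 and 7.71 against 9.40 and 9.15 and rose by 1.86 (adjusted p = 0.0027). Cholesterol genes had the highest median of the lists other than markers, 0.32, and 3 of 41 were higher and 0 lower, or 6 and 0 without Sp1+/+ replicate 1. Soat2, which esterifies cholesterol, read 7.77 and 7.41 against 9.38 and 9.11 and rose by 1.66 (adjusted p = 0.000575). Tm7sf2, a sterol reductase, read 11.84 and 11.41 against 13.03 and 12.98 and rose by 1.38.

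Several genes that protect against oxidants and toxins fell. Of 46 glutathione and redox genes, 5 were lower and 0 higher, with a median of -0.13. Nqo1, a quinone reductase and a known target of NRF2, read 9.86 and 9.73 in Sp1+/+ HE1 and 7.85 and 7.63 in Sp1-/- HE1 and fell by 2.06 (adjusted p = 0.000217). Mgst1, a microsomal glutathione transferase, read 9.79 and 8.85 against 7.33 and 7.06 and fell by 2.12 (adjusted p = 0.00108). In both genes the 2 Sp1-/- arrays lay over 1 log2 unit below the lower Sp1+/+ array. Gsta4 (-1.0), Gstt3 (-1.25) and Gclm (-1.12), the regulatory subunit of the first enzyme of glutathione synthesis, fell less. Gclm was -0.99 without Sp1+/+ replicate 2 and -0.94 without Sp1-/- replicate 2. Gstt3 was -0.95 without Sp1-/- replicate 2, and Gsta4 was -0.97 without that array and -0.95 without Sp1+/+ replicate 1. Without Sp1-/- replicate 2, 2 of the list were called.

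S100 and annexin genes, which encode calcium-binding proteins, had 4 lower and 0 higher of 27. Beside S100a6, Anxa11 read 11.93 and 11.76 against 9.61 and 10.24 and fell by 1.92 (adjusted p = 0.00191), and S100a4 read 10.05 and 10.39 against 8.91 and 9.10 and fell by 1.22. Anxa3 fell by 1.20, and was -0.98 without Sp1+/+ replicate 2 and -1.04 without Sp1-/- replicate 2, not called in either. Of 52 lysosome genes, 1 was lower (Ctsz) and 2 higher. Ctse, an aspartic protease, read 9.57 and 9.0 against 11.35 and 11.20 and rose by 1.99 (adjusted p = 0.000126). The complement regulator Cd59a read 11.75 and 12.13 against 9.26 and 8.93 and fell by 2.85 (adjusted p = 4.1e-05), 1 of 2 lower and 2 higher among 47 chemokine and complement genes.

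Genes of stress responses went both ways. Gdf15, a stress-induced cytokine, read 9.02 and 8.48 in Sp1+/+ HE1 and 6.65 and 6.61 in Sp1-/- HE1 and fell by 2.12 (adjusted p = 0.00099). Chac1, a glutathione-degrading enzyme of the integrated stress response, read 8.66 and 9.01 against 10.10 and 10.08 and rose by 1.25 (adjusted p = 0.00476). The pro-apoptotic factor Ddit3 read 8.69 and 8.70 against 10.01 and 9.68 and rose by 1.15, and its change was 0.98 without Sp1-/- replicate 1. In all, 3 of 40 genes of this response were higher and 2 lower. Interferon response and antigen presentation genes were split as well, with 4 higher and 3 lower of 46, or 8 and 4 with the scaled processed signal. Isg15, a ubiquitin-like protein induced by interferon, read 9.37 and 9.41 against 10.71 and 10.60 and rose by 1.26 (adjusted p = 0.00166). Ifitm3, a membrane protein that restricts virus entry, read 13.59 and 13.54 against 12.27 and 12.11 and fell by 1.37 (adjusted p = 0.00206). Tap1, the peptide transporter of antigen presentation, read 7.13 and 7.59 against 6.20 and 6.21 and was not well above background in Sp1-/- HE1, so it was at least 2.23-fold lower, and it was -0.93 without Sp1+/+ replicate 2.

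Imprinted genes, which are expressed from 1 parental allele, had 7 higher and 2 lower of 45 measured, with a median of 0.08. Cdkn1c, an inhibitor of cyclin-dependent kinases, read 12.69 and 11.79 in Sp1+/+ HE1 and 14.45 and 14.43 in Sp1-/- HE1 and rose by 2.20 (adjusted p = 0.00388). Plagl1, a zinc finger factor, read 13.53 and 12.54 against 15.55 and 14.70 and rose by 2.09 (adjusted p = 0.0133). H19, a noncoding RNA, read 15.59 and 15.78 against 13.69 and 13.99 and fell by 1.84 (adjusted p = 0.013). The neighbor of H19, the growth factor gene Igf2, read 15.01 and 15.14 against 15.47 and 14.61 and was not called. Cdkn1c, Plagl1 and H19 kept their calls with any 1 array left out. Asb4 (1.55) was not called without Sp1+/+ replicate 2 (1.36) or Sp1-/- replicate 1 (1.43), nor was Peg10 (-1.15) without Sp1+/+ replicate 2 (-1.02) or Sp1-/- replicate 2 (-0.77). Without Sp1+/+ replicate 2, 3 imprinted genes were higher and 1 lower.

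A few genes of the germline rose, Rhox5 among them. Of 44 genes for DNA methylation enzymes and of the germline, 3 were higher and 0 lower, with a median of 0.08. With the scaled processed signal, 7 were higher and the median was 0.40. Tex19.1, which restrains retrotransposons in germ cells, read 7.55 and 7.82 against 10.61 and 9.96 (adjusted p = 0.000127). The X-linked meiotic gene Tex11 was not well above background in Sp1+/+ HE1 (6.08 and 6.26) and read 7.49 and 7.50 in Sp1-/- HE1, at least 2.51-fold higher (adjusted p = 1.06e-05). All 3 were called with any 1 array left out, but Tex11 was not called with the mean over its probes. Among pluripotency genes, Dppa4 read 11.59 and 10.94 against 9.81 and 9.78 and fell by 1.47 (adjusted p = 0.000964), and Dppa5a read 8.01 and 7.99 against 6.88 and 6.26 and fell by 1.43, whereas Pou5f1, at 6.46 and 6.62 against 6.73 and 6.82, was not called. Of the neural and placodal genes, Sox3, a SOX factor of neural progenitors, read 7.65 and 6.92 against 10.16 and 8.69 (adjusted p = 0.0153), and Mapt, the microtubule protein tau, read 8.80 and 8.73 against 9.98 and 10.23 (change 1.34). Endoderm and yolk sac genes had 4 higher and 0 lower of 36, or 7 and 0 with the scaled processed signal and 2 and 0 without Sp1+/+ replicate 2, led by Spink1 at 8.28 and 8.26 against 11.03 and 10.19, and Trf, which encodes transferrin, read 10.36 and 10.50 against 11.56 and 11.78 (change 1.24).

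Within the Sp and Klf family, 1 of 26 genes rose beside the fall of Sp1. Sp4 read 8.10 and 7.88 in Sp1+/+ HE1 and 9.25 and 9.46 in Sp1-/- HE1, a rise of 1.36 (standard error 0.14, adjusted p = 0.000259), and was higher on both Sp1-/- arrays than on either Sp1+/+ array. Sp3 read 9.01 and 8.48 against 9.0 and 7.87, overlapping values, and was not called (-0.31). Changes of the other Sp genes measured ran from -0.40 for Sp6 to 0.74 for Sp5, none called. Sp5 was not well above background in Sp1+/+ HE1.

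Housekeeping groups gave few calls. Of 81 cytosolic ribosomal protein genes, 0 were called and the median was 0.01. Replication and mitosis genes had a median of -0.27, with 51 of 66 below 0, but 1 was called lower and 1 higher. The one lower was Cdc25b, a phosphatase that starts mitosis, at 10.85 and 10.91 against 9.44 and 9.22 (change -1.55, adjusted p = 0.000638). Genes of the respiratory chain gave 1 lower, Cox6b2 (-1.44), which kept its call only without Sp1-/- replicate 2. Of 46 glycolysis and hypoxia genes, 3 were lower and 0 higher, among them the neuronal enolase gene Eno2 at 9.08 and 8.57 against 7.70 and 7.67 (-1.14, and -0.89 without Sp1+/+ replicate 1). Among ion channels and amino acid transporters, Kcnk5, a potassium channel, read 8.29 and 9.0 against 6.30 and 6.23 and fell by 2.38 (adjusted p = 5.61e-05). Of the epithelial genes, Ocln, which encodes the tight junction protein occludin, read 8.69 and 8.22 against 6.88 and 6.75 and fell by 1.64 (adjusted p = 0.00069). No member was called in the lists of erythroid, heme and iron, Cdx, Meis and Pbx, polycomb and trithorax, or hedgehog genes.

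The changes in HE1 were set beside those in the other populations, each compared with its own Sp1+/+ arrays. Called genes made up 1.65% of those tested in Flk1+ cells, 1.95% in HE2 and 4.11% in progenitors. Of the 422 genes called lower in HE1, 245 were also called lower in HE2, 58.1% of the HE1 genes and 56.2% of the 436 HE2 genes. For progenitors the shared number was 207 (49.1% and 21.5%) and for Flk1+ cells 117 (27.7% and 36.1%). For the genes called higher, the shared numbers were 83 in HE2 (23% of the 361 HE1 genes and 28.8% of the HE2 genes), 74 in progenitors (20.5% and 13.2%) and 72 in Flk1+ cells (19.9% and 24.9%). In all 4 populations, 85 genes were lower and 29 higher. Mgmt, Smim20, Cers4 and Rhox5 were among them, and Mgmt changed by -4.26 in Flk1+ cells, -5.55 in HE2 and -4.34 in progenitors, where all 6 Sp1-/- arrays were well above background. Of the genes lower in all 4 that had a promoter in the table, 47 of 55 (85.5%) held a GC box. The share was 77.2% of genes called lower in HE1 and 62.6% of genes well above background on all 4 HE1 arrays.

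Whether HE1 differed was tested as the HE1 change minus the mean change of the other 3 populations. Of the genes tested, 353 (0.950%) were called, 214 higher (0.576%) and 139 lower (0.374%) in HE1 than elsewhere, 116 with an adjusted p of 0.05 or less. Of these, 143 were also called in HE1 itself in the same direction, 88 higher and 55 lower. In HE1 itself, 208 of the 353 genes were not called. Ctsz fell more in HE1 (-3.35) than in Flk1+ cells (-1.28), HE2 (-2.15) or progenitors (-0.60), a difference of -2.0 (adjusted p = 0.00627). Gstk1 did likewise, by -1.83 (adjusted p = 0.00627). Cdc25b fell in HE1 (-1.55) with a change of 1.91 in progenitors, a difference of -1.83 (adjusted p = 0.00627). The changes of Cdc25b in Flk1+ cells and HE2 averaged below 0, so the positive mean of the other populations came from progenitors.

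Genes higher in HE1 than the mean of the other populations included matrix genes, of which 12 of 81 were higher and 0 lower. Their list medians were 0.14 for HE1, -0.01 for Flk1+ cells, -0.12 for HE2 and -0.52 for progenitors. The progenitor median thus stood farthest from that of HE1. The laminin chain gene Lama1 read 11.57 and 11.06 in Sp1+/+ HE1 and 13.28 and 12.47 in Sp1-/- HE1, a rise of 1.56 against a change of -2.97 in progenitors (difference 2.29, adjusted p = 0.0397). Its call in HE1 did not hold without Sp1+/+ replicate 2 (1.30) or Sp1-/- replicate 1 (1.16). The changes of Lama1 in Flk1+ cells and HE2 averaged above 0, so the negative mean of the other populations came from progenitors. Galnt14, a mucin-type glycosyltransferase, had a mean of 9.24 in Sp1+/+ HE1 and of 10.66 in Sp1-/- HE1 and rose by 1.42, with changes of -0.32, -0.29 and -2.35 in Flk1+ cells, HE2 and progenitors (difference 2.40, adjusted p = 0.00989). Trh (1.89, adjusted p = 0.00627) and Mfap2 (1.43, adjusted p = 0.00295) also rose more in HE1 than elsewhere. Erythroid genes went the other way in this contrast, with 8 of 38 lower and 0 higher. Their list medians were -0.09 for HE1, 0.01 for Flk1+, 0.50 for HE2 and 1.90 for progenitors. The HE1 median thus lay close to the Flk1+ median, and the progenitor median stood farthest above both.

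**Figure D5:**
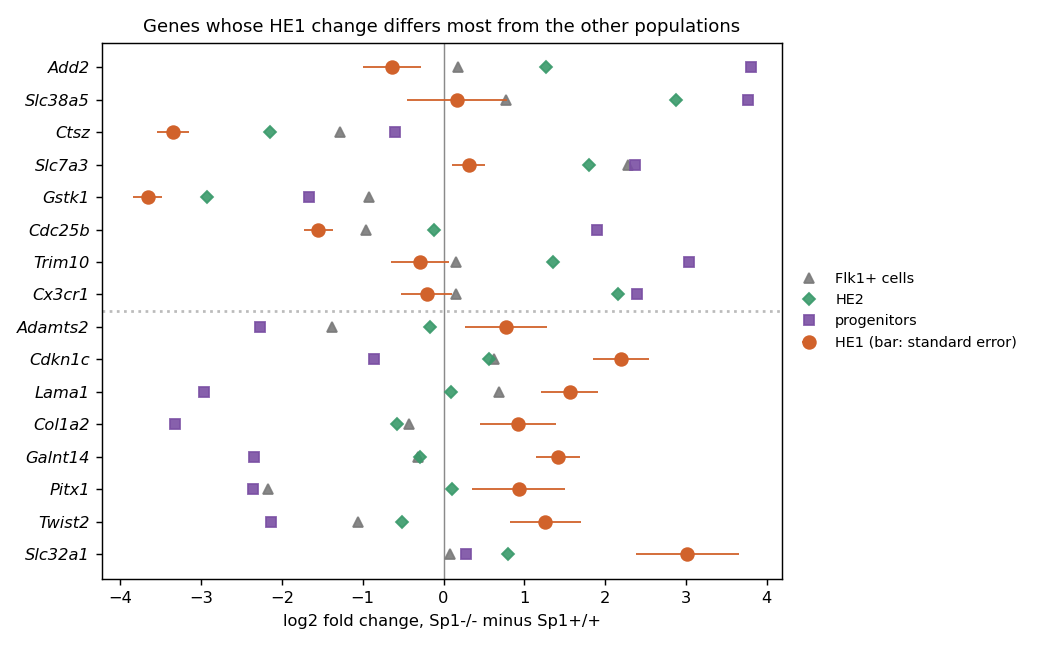
Log2 fold change, Sp1-/- minus Sp1+/+, in Flk1+ cells (triangles), HE1 (circles, with the standard error), HE2 (diamonds) and progenitors (squares), for the 8 genes with the most negative and the 8 with the most positive difference between the HE1 change and the mean of the others. In Ctsz and Gstk1 the HE1 circle lies to the left of every other population, and in Slc32a1 (3.02 in HE1) and Cdkn1c (2.20) to the right. For Add2, Slc38a5, Trim10 and Cx3cr1, HE1 lies near 0 or below and progenitors far to the right.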

How the data were processed

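RNA of sorted cells was hybridized to one-color Agilent mouse arrays, and the labels name Feature Extraction 10.7.1.1 and limma. Per the file headers, the scanner files hold raw spot intensities with their background and flags. The authors deposited log2 values after normexp background correction and quantile normalization between arrays. The methods state an offset of 16, but the deposited values were matched to within 0.005 by an offset of 50 and not by 16. These deposited log2 values were used here. Probes were matched to mouse genes by accession through RefSeq tables, the brightest probe stood for a gene, and genes under 6 on every array were left out. limma 3.58.1 in R 4.3.3 fitted all 8 groups on 16 arrays (8 residual degrees of freedom), after a test on simulated data. The scanner intensities gave the background flags and some of the alternatives. The alternatives were an offset of 16, no background correction, processed signal scaled to the 75th percentile, other filters and the mean over a gene's probes. Fewer arrays, array weights, a replicate block and a t-test of each gene alone were also used.

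The members and gene lists were chosen with earlier results of these data known. Named genes are the 15 largest falls and rises with a symbol, Sp genes, markers, up to 4 called members of each list in each direction, the 6 largest differences between the Sp1-/- replicates in each direction and the 8 largest differences from the other populations in each direction. Acaa2, Acadl, Acads, Gsta4, Hoxd10 and Il1r1 were named after their values were seen.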

Additional observations from a re-analysis of the deposited data

Results flagged for a closer look

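The change in HE1 differed from the mean change in the other 3 populations, by the interaction contrast in limma, for 353 genes, by at least 2-fold with an unadjusted p up to 0.01. The named ones that follow are the 8 most negative and the 8 most positive differences (log2). In Ctsz (-2.0, adjusted p = 0.00627), Gstk1 (-1.83, adjusted p = 0.00627) and Cdc25b (-1.83, adjusted p = 0.00627), the HE1 change was itself called lower. For Add2, a membrane skeleton protein of red cells (-2.38, adjusted p = 0.0369), Slc38a5, a glutamine transporter (-2.31, adjusted p = 0.222), Trim10, an erythroid ring finger gene (-1.81, adjusted p = 0.1), and Cx3cr1, the fractalkine receptor (-1.78, adjusted p = 0.0681), HE1 gave no call. Their changes in progenitors were 3.81, 3.77, 3.04 and 2.40. Slc7a3, a cationic amino acid transporter, differed by -1.84 (adjusted p = 0.00989).

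On the positive side stood Slc32a1 (2.63, adjusted p = 0.172), the transcription factors Twist2 (2.49, adjusted p = 0.065) and Pitx1 (2.40, adjusted p = 0.171), Galnt14 (2.40, adjusted p = 0.00989) and Cdkn1c (2.09, adjusted p = 0.0567). The matrix genes among them were the collagen chain Col1a2 (2.36, adjusted p = 0.097), Lama1 (2.29, adjusted p = 0.0397) and the procollagen peptidase Adamts2 (2.05, adjusted p = 0.183). Only differences with an adjusted p of 0.05 or less passed the correction, which were 116 of the 353. For Col1a2, Twist2, Pitx1 and Adamts2 the HE1 changes were 0.93, 1.26, 0.93 and 0.78 and those in progenitors -3.32, -2.13, -2.35 and -2.27, with Pitx1 not well above background on either Sp1-/- progenitor array and Adamts2 on 1 of them.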

How the results depend on the processing

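The fall of Sp1 kept its direction and its call under every alternative fitted, between -3.47 and -3.18. Of the other 143 named genes called, 34 kept their call under every alternative except that chosen after seeing the data, 78 under those of them that fitted all groups, and 0 reversed. Counts of called genes moved by over 1.5 times under these alternatives, and the causes were not tested. With the scaled processed signal, 2034 genes were called, 1388 higher and 646 lower, and 748 differed from the other populations. With only the 4 HE1 arrays, 219 were higher, and 49 were called after Benjamini-Hochberg adjustment at 0.05 (7 higher and 42 lower). A t-test of each gene alone, which the methods name for samples in general and not for the arrays, called 153, 43 higher and 110 lower, and after Benjamini-Hochberg adjustment 0, 0 and 0. An adjusted p of 0.01 or less left 459, of which 151 were higher. Leaving out 1 HE1 array in turn gave 572 to 1738 called, 275 to 985 higher and 297 to 753 lower, and 356 to 938 that differed from the other populations. The highest values came without Sp1-/- replicate 1. With an offset of 16, an alternative chosen after seeing the data when 1 array is also left out, the ranges were 781 to 2331, 369 to 1250, 412 to 1081 and 487 to 1354. Without Sp1+/+ replicate 1 these were 1239 called, 708 lower and 640 that differed, and without Sp1+/+ replicate 2, 646 lower. Taking the mean over a gene's probes instead of the brightest probe gave 626 called, 259 higher and 367 lower. With that mean, 12 of the 143 named genes lost their call. These were Acox3, Cpt1a, Csf2rb, Csf2rb2, Dppa4, Epha7, Galnt14, Isg15, Mapt, Nkd1, Peg10 and Tex11.

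The main fit did not pair arrays by replicate number. Deviations of same-numbered arrays correlated between -0.17 and 0.50 over 28 pairs of groups, and above 0.1 in 11. Between the 2 HE1 groups the correlation was 0.28, so same-numbered HE1 arrays deviated together in part. With a replicate block 799 genes were called, 375 higher and 424 lower, and with the block and only the HE1 arrays 597, 245 and 352, of which 0 had a Benjamini-Hochberg p of 0.05 or less. Sp1 was -3.28 with the block, and 388 genes differed from the other populations. With 2 arrays a group on 2 slides, neither slide nor culture could be modelled, and genes near background, with 6414 not well above it on any of the 4 arrays, gave 0 calls.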
